A study of Mus musculus with 2 samples.

Results

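The genes described here are 10 components of transforming growth factor β (TGF-β) signalling among the 31053 genes counted in kidney cells of MRL-lpr mice. They are the ligands Tgfb1, Tgfb2 and Tgfb3, the receptors Tgfbr1, Tgfbr2 and Tgfbr3, the latency genes Ltbp1 and Lrrc32, and the signalling genes Smad3 and Smad7. All 10 were found by symbol, once each, in both libraries. They were chosen for their roles and not by a limit on measured values, although earlier results of these data were known.

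TGF-β ligands are made as latent dimers in which a propeptide holds the mature cytokine inactive. Latent TGF-β binding proteins such as Ltbp1 fix this complex in the extracellular matrix, whereas Lrrc32 (GARP) holds it on the surface of regulatory T (Treg) cells and platelets, and αv integrins are among the proteins that release it. The freed ligand brings together the receptors Tgfbr1 and Tgfbr2, with Tgfbr3 (betaglycan) presenting it, after which Smad2 and Smad3 carry the signal to the nucleus and Smad7 dampens it. In the kidney the pathway is known both for restraining immune cells and for driving fibrosis.

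The study asked how kidney cells, and group 2 innate lymphoid cells (ILC2s) above all, differ as lupus nephritis develops. MRL-lpr mice carry the lpr mutation of the death receptor gene Fas and develop spontaneous lupus. Both libraries come from this strain, with no other genotype or treatment among them. Kidneys of several mice were pooled at each age, leukocytes were collected on a Percoll gradient, ILCs were enriched with a magnetic kit, and live cells were sorted and loaded for droplet-based sequencing of transcript 3′ ends. There was 1 library from young mice and 1 from old mice, so age, pool and library cannot be told apart and no test between them was possible. The pools hide how individual mice varied.

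Barcodes were dropped below 200 genes or above 20% of UMIs (unique molecular identifiers, each marking 1 captured transcript) from mitochondrial genes, and 11429 of 15076 young and 10232 of 12622 old barcodes remained. The median depth was 7881 UMIs per cell in the young library and 6933 in the old. The libraries shared 41 barcode sequences, 26 of them among the kept cells, and no cell was removed for this. Cells were assigned to classes by marker genes, with at least 3 markers required. The same marker rule left 472 young and 410 old cells with markers of several classes and 1181 and 643 cells with none. Many cells of each library held Y-linked UMIs and no Xist UMI (5807 young and 4151 old) and others Xist alone (1667 young and 2982 old), although the study's methods describe female mice, and the ratios were also computed within each of these groups of cells.

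The largest classes were proximal tubule (PT)-like cells (6445 young, 3656 old), ILC2-like cells (1426 young, 312 old), CD4 T-like cells (101 and 1062), CD8 T-like cells (161 and 1106) and T-like cells with neither Cd4 nor Cd8 UMIs, named double-negative (DN) T-like (175 and 1572). DN T cells are a known hallmark of the lpr mutation, and a missing Cd4 or Cd8 UMI can also place a cell in this class. Macrophage or monocyte-like cells numbered 235 and 382, natural killer (NK) or ILC1-like cells 142 and 248, B-like cells 350 and 170, and endothelial-like cells 276 and 18. Because ILCs were enriched, these numbers describe a library and are not frequencies in the kidney. A class level below is the gene's summed UMIs in that class scaled to the class total (counts per 1e6 UMIs, CPM), with an exact Poisson 95% interval that covers counting error only. In such summed values, fewer expressing cells and less RNA per cell cannot be told apart. Levels were compared between classes for the same gene and not between genes, since 3′ counting captures genes unequally.

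The members differed widely in how many transcripts they gave. Smad7 had the most UMIs, 15500 in the young library and 18052 in the old. Tgfb1 gave 6395 and 9501, Tgfbr2 4209 and 4828, Tgfbr1 2307 and 1993, and Smad3 2420 and 1807. The other 5 were sparse. Tgfbr3 had 403 and 795 UMIs, Ltbp1 246 and 29, and Lrrc32 174 and 55. Tgfb2 and Tgfb3, with 69 and 38 UMIs and with 32 and 51, were too thinly counted to compare most classes.

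**Figure D1:**
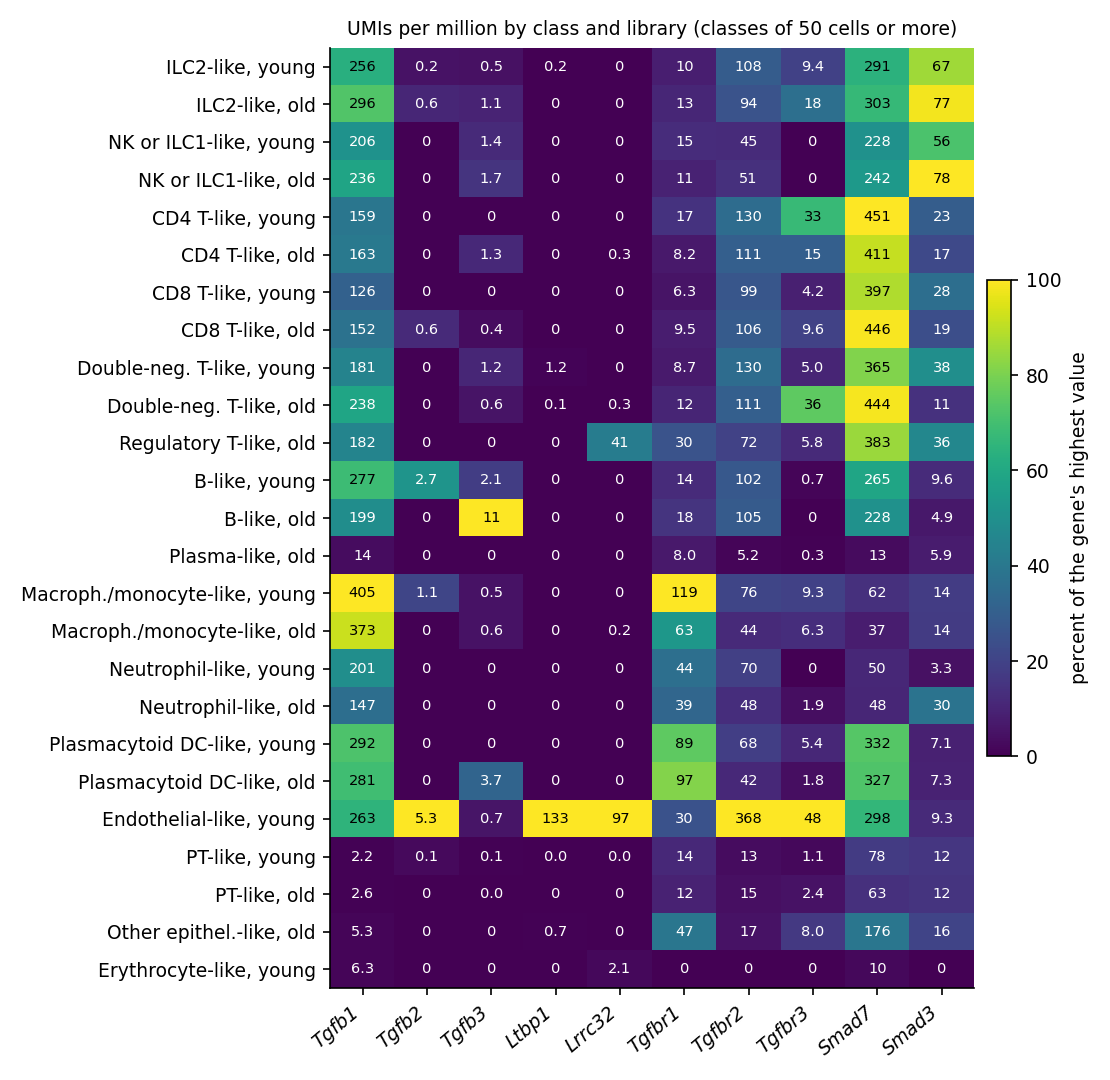
Levels of the 10 members in the marker-gated classes of at least 50 cells, each row a class of the young or the old library and each column a gene. The printed values are CPM, and the colour is the percent of that gene's highest value, so colours cannot be compared between genes. Tgfb1 spans nearly all immune classes, Ltbp1 is concentrated in endothelial-like cells of the young library (133 CPM), and Smad3 reaches 66.7 and 76.5 CPM in ILC2-like cells.

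The members lie on 8 mouse chromosomes, placed here by GENCODE M21 coordinates (GRCm38). Tgfb2 lies on chromosome 1 at 186622792–186705989, Tgfbr1 on chromosome 4 at 47353222–47414931, Tgfbr3 on chromosome 5 at 107106570–107289629 and Lrrc32 on chromosome 7 at 98489283–98502181. Smad3 and Tgfbr2 share chromosome 9, at 63646767–63757994 and 116084293–116175360. Tgfb3 lies on chromosome 12 at 86056745–86079041, Ltbp1 on chromosome 17 at 75005568–75392512 and Smad7 on chromosome 18 at 75367529–75395935.

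Tgfb1 was the only ligand counted at depth, and among the classes its transcripts lay mostly in immune and endothelial cells. The gene (ENSMUSG00000002603) lies on chromosome 7 at 25687002–25705077 of GRCm38, plus strand. Its highest level in both libraries was in macrophage or monocyte-like cells, at 405 CPM (376–435; young) and 373 CPM (357–390; old). In the young library the next classes were pDC (plasmacytoid dendritic cell)-like at 292 CPM (249–341), B-like at 277 CPM (251–306), endothelial-like at 263 CPM (238–290) and ILC2-like at 256 CPM (245–267). Among these classes, from pDC-like to ILC2-like, neighbours in this order did not differ beyond counting error. NK or ILC1-like, neutrophil-like and the T-like classes followed, from 206 CPM (175–242) in NK or ILC1-like cells to 126 CPM (105–151) in CD8 T-like cells, again with each neighbour within counting error of the next. In the old library ILC2-like cells stood second at 296 CPM (271–322), within counting error of pDC-like cells at 281 CPM (239–330). DN T-like cells at 238 CPM (227–250) and NK or ILC1-like cells at 236 CPM (214–260) followed, both with intervals below that of ILC2-like cells. B-like, Treg-like, CD4 T-like, CD8 T-like and neutrophil-like cells came below these, between 199 CPM (175–225) and 147 CPM (116–183).

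Proximal tubule cells, the most numerous cells of the renal cortex, set the floor for Tgfb1. The PT-like level was 2.24 CPM (1.97–2.55; young) and 2.55 CPM (2.19–2.97; old). Only 2.89% and 3.58% of PT-like cells held any Tgfb1 UMI, at median depths of 14010 and 15376 UMIs. In ILC2-like cells, 67.2% of young and 71.5% of old cells held one, at shallower median depths of 5257.5 and 5623.5 UMIs. After each cell was thinned to 1000 UMIs, the shares were 21.4% and 26.3% of ILC2-like cells against 0.244% and 0.252% of PT-like cells. In macrophage or monocyte-like cells the thinned shares were 31.6% and 31.3%.

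Weighted by how many cells each class contributed, the sources of Tgfb1 UMIs differed between the libraries. ILC2-like cells gave 32.3% of all Tgfb1 UMIs of the young library with 12.5% of its cells, and 5.45% of those of the old library with 3.05% of its cells. Macrophage or monocyte-like cells gave 11.5% in the young library from 2.06% of the cells and 21.1% in the old from 3.73%. DN T-like cells gave 17.1% of the old library's Tgfb1 UMIs, CD8 T-like cells 12.8% and CD4 T-like cells 10.6%. PT-like cells were 56.4% of the young library's cells and gave 3.82% of its Tgfb1 UMIs. These sums follow the cell numbers that enrichment and sorting left. Cells with markers of several classes held 14.8% and 12.7% of the Tgfb1 UMIs and were assigned to no source. Cells of no class held a further 608 young and 380 old Tgfb1 UMIs. Of the UMIs in both kinds of cells, 424 of 1553 young and 856 of 1588 old lay in a cluster led by Lyz2 and Ms4a6c. Most macrophage or monocyte-like cells of each library lay in that cluster, and the shares given for this class leave those UMIs out.

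**Figure D2:**
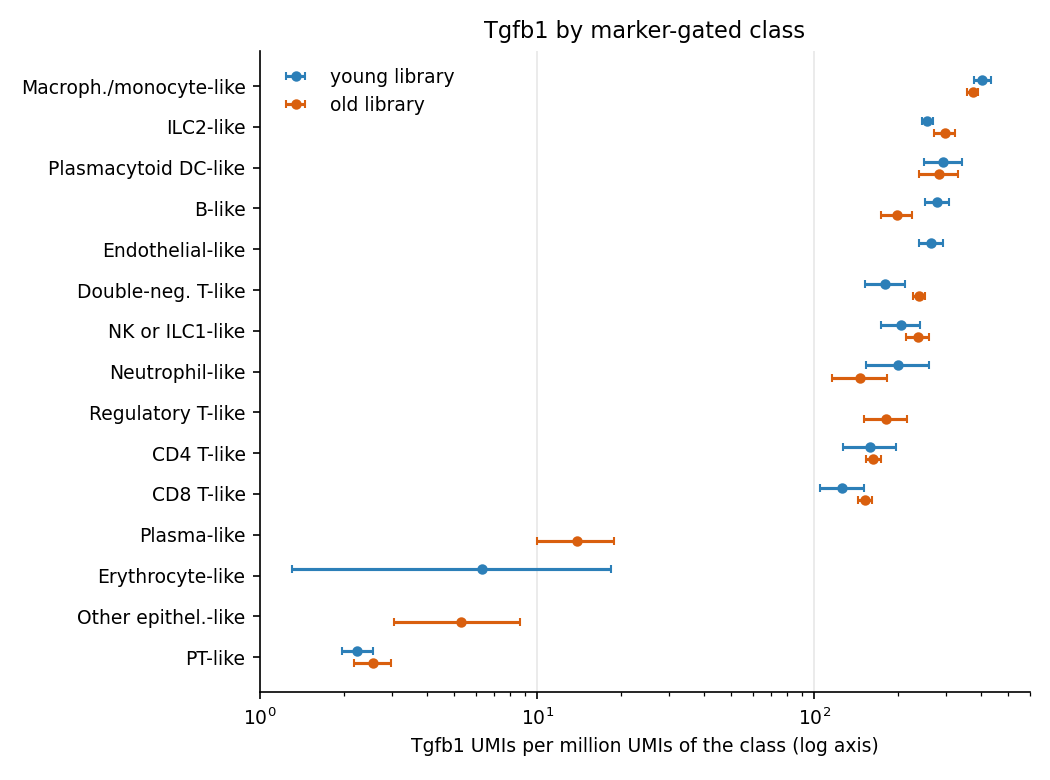
Tgfb1 level per class (CPM, points with exact Poisson 95% intervals) in the young and the old library. Macrophage or monocyte-like cells are highest in both libraries (405 and 373 CPM), and PT-like cells are near the bottom (2.24 and 2.55 CPM).

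Within each library, ILC2-like cells carried more Tgfb1 than CD4 T-like and NK or ILC1-like cells. The log2 ratio of ILC2-like over CD4 T-like cells was 0.69 (95% interval 0.37–1.02) in the young library and 0.86 (0.70–1.01) in the old. Over NK or ILC1-like cells it was 0.31 (0.07–0.56) and 0.32 (0.13–0.51). Macrophage or monocyte-like cells exceeded ILC2-like cells by 0.66 and 0.33 on the log2 scale. All of these are below 2-fold. A ratio of at least 2-fold between ILC2-like and CD4 T-like cells of the young library was seen in 22.8% of the genes with 50 or more UMIs and in 2 of the 6 members that reached that count. These were Smad3, higher in ILC2-like cells, and Tgfbr3, lower in them; in the old library it was 1 of 6 members, Smad3, against 18.9% of genes.

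Taken over whole classes, Tgfb1 differed between the libraries by less than 2-fold in each of the 10 classes compared. The old level over the young one was 0.21 on the log2 scale (0.07–0.35) in ILC2-like cells, 0.40 (0.15–0.65) in DN T-like cells and 0.27 (0.00–0.55) in CD8 T-like cells. It was 0.04 (−0.29 to 0.38) in CD4 T-like cells and −0.12 (−0.24 to 0.01) in macrophage or monocyte-like cells, intervals that include no difference. With classes taken from clusters, the macrophage or monocyte-like ratio was 0.12 (0.03 to 0.22), opposite in sign. B-like cells differed in the other direction, with 277 young and 199 old CPM and a log2 ratio of −0.48 (−0.72 to −0.25). In PT-like cells, where the level was low, the ratio was 0.19 (−0.10 to 0.47), but 1.13 (0.34 to 1.94) among those with Xist alone. In the 1 PT-like cluster that both libraries filled most it was 1.43 (0.30–2.66), at 0.958 young and 2.58 old CPM, on 10 and 23 UMIs. The ILC2-like ratio was 0.45 (0.26–0.64) among cells with Y-linked UMIs alone. Among cells with Xist alone it was −0.10 (−0.38 to 0.17), an interval that includes 0.

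Tgfb2, an isoform known from epithelium and development, was counted mostly outside the immune classes. Of its 69 UMIs in the young library 27 lay in cells of no class, 15 in PT-like cells and 8 in endothelial-like cells, and of its 38 UMIs in the old library 29 lay in cells of no class. Of all Tgfb2 UMIs, 22 young and 25 old ones lay in 1 cluster of 130 cells, 56 young and 74 old, whose leading genes were Upk3a, Psca, Sprr1a, Krt19, Upk1a and Upk1b. Uroplakins (the Upk genes) coat the surface of the urothelium, but no urothelial marker list was set, so the cluster was not named. Within it Tgfb2 stood at 28.9 CPM (18.1–43.7; 13 young cells) and 17.9 CPM (11.6–26.5; 11 old cells). The 2 intervals overlap. In the old library 5 further UMIs lay in 3 CD8 T-like cells, and in the young library 4 lay in a single B-like cell. The uroplakin cluster also held Tgfb1, at 27.6 CPM (17.1–42.1; young) and 58.1 CPM (46.2–72.3; old).

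Tgfb3 was sparse everywhere. Its highest count in 1 class was 14 UMIs in 11 of the 170 B-like cells of the old library, at 11.4 CPM (6.21–19.1). B-like cells of the young library held 3 UMIs, at 2.06 CPM (0.425–6.02). These 2 intervals do not overlap, but both rest on few transcripts. The gene overlaps Ttll5, which lies on the other strand.

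The 2 latency genes had narrow sources. Ltbp1, which ties latent TGF-β to the matrix, was mostly endothelial in the young library. Endothelial-like cells held 201 of its 246 UMIs there, at 133 CPM (115–153), in 123 of 276 cells (44.6%, and 11.3% after thinning to 1000 UMIs, at a median depth of 5345 UMIs). In PT-like cells, read more deeply, the share was 0.0621%. The old library had 18 endothelial-like cells, with 2 Ltbp1 UMIs at 17.2 CPM (2.08–62.0). The old-over-young log2 ratio in this class was −2.95 (−6.01 to −1.08). The lower total of 29 Ltbp1 UMIs in the old library, against 246, stood beside 18 endothelial-like cells against 276. Of the 29 old UMIs, 22 lay in the uroplakin cluster, at 15.8 CPM (9.90–23.9; in 7 cells), which in the young library held 8 UMIs at 10.5 CPM. ILC2-like cells held 2 Ltbp1 UMIs in the young library and none in the old.

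Lrrc32 had the same main source and a second one in Treg-like cells. Young endothelial-like cells held 146 UMIs at 96.6 CPM (81.6–114), in 94 cells (34.1%; 9.81% after thinning), whereas 1 of the 6445 PT-like cells held one. The 18 old endothelial-like cells held 9 UMIs at 77.2 CPM (35.3–147), of which 55.6% came from 1 cell. Treg-like cells, whose surface Lrrc32 is known to hold latent TGF-β, had 6 UMIs in 4 of 30 young cells, at 30.5 CPM (11.2–66.5), and 28 UMIs in 16 of 112 old cells, at 40.5 CPM (26.9–58.6). CD4 T-like cells of the old library, which excluded Treg-like cells, held 2 UMIs at 0.323 CPM, so Treg-like cells exceeded them by 6.97 on the log2 scale (4.98–10.09). ILC2-like cells held no Lrrc32 UMI in either library, and a count of 0 allows levels of up to 0.372 (young) and 1.71 CPM (old) there by counting alone.

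**Figure D3:**
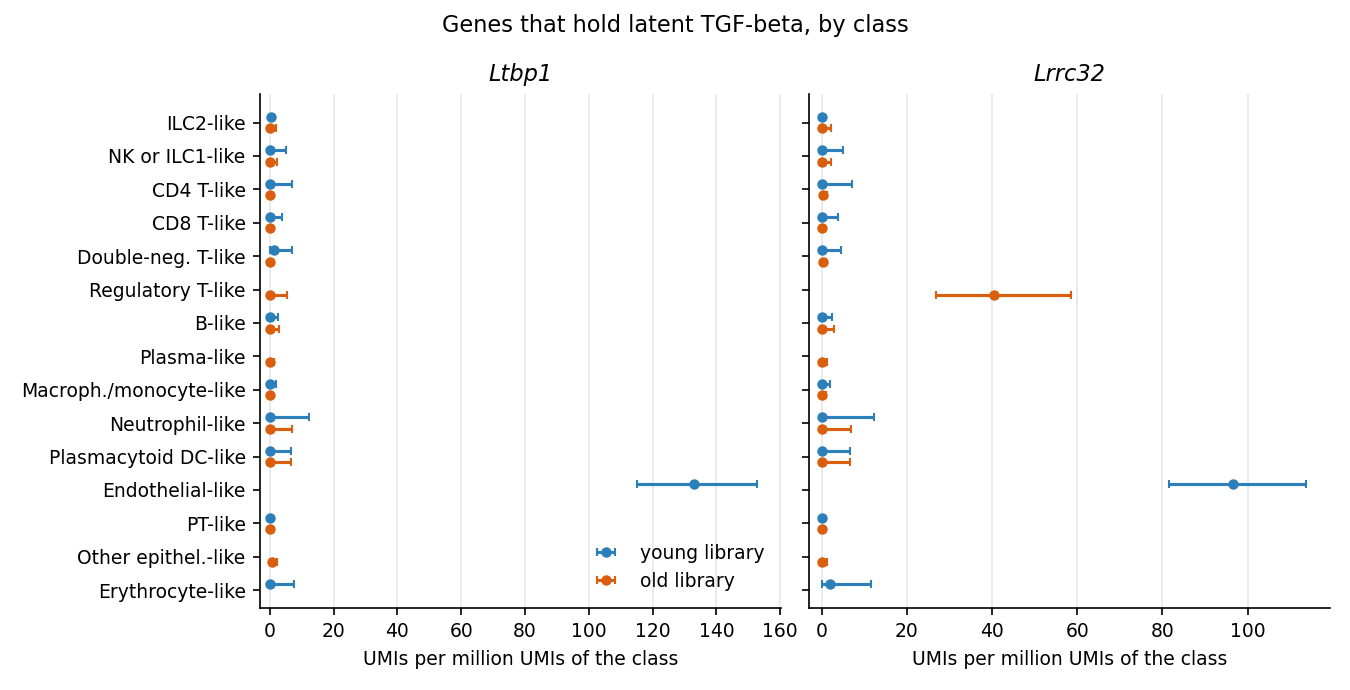
Levels of Ltbp1 and Lrrc32 per class (CPM, with exact Poisson 95% intervals) in both libraries, for classes of at least 50 cells in the library. Endothelial-like cells are the main source of both genes in the young library (133 and 96.6 CPM), and Treg-like cells carry Lrrc32 in the old library (40.5 CPM).

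The signalling receptors Tgfbr1 and Tgfbr2 were arranged differently across the classes. Tgfbr1, the type I receptor kinase, was highest in macrophage or monocyte-like cells of the young library at 119 CPM (103–136) and in pDC-like cells at 89.2 (young) and 96.8 CPM (old). In the old library macrophage or monocyte-like cells stood at 62.6 CPM (56.1–69.7). Most lymphocyte classes were lower. ILC2-like cells held 10.2 and 12.6 CPM, CD8 T-like cells 6.25 and 9.49 CPM, DN T-like cells 8.66 and 12.1 CPM, and B-like cells 14.4 and 17.8 CPM. CD4 T-like cells held 17.3 and 8.24 CPM. Treg-like cells stood higher at 25.4 and 30.4 CPM, as did the few γδ T-like cells (45 young, 32 old) at 44.5 and 37.7 CPM, on 11 and 8 UMIs. PT-like cells held 13.6 and 11.6 CPM.

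Tgfbr2, the type II receptor that binds the ligand first, was instead broad among lymphocytes and highest in endothelium. Young endothelial-like cells held 368 CPM (338–400), with a UMI in 75.7% of cells and in 27.9% after thinning, against 1.27% of PT-like cells after thinning. The 18 old ones held 154 CPM. CD4 T-like and DN T-like cells each had 130 young and 111 old CPM, ILC2-like cells 108 young and 94.2 old CPM, and B-like cells 102 young and 105 old CPM. Old CD8 T-like cells held 106 CPM. The old-over-young intervals of CD4 T-like (−0.23; −0.59 to 0.15) and ILC2-like cells (−0.19; −0.44 to 0.05) both include 0. NK or ILC1-like cells were lower, at 44.8 and 50.9 CPM, and ILC2-like cells exceeded them by 1.26 (0.76–1.81) and 0.89 (0.51–1.28) on the log2 scale. At least 2-fold ratios between these classes in the young library were seen in 21.3% of genes and in 2 of 6 members.

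Both signalling receptors were lower in old than in young macrophage or monocyte-like cells. The log2 ratio was −0.92 (−1.17 to −0.67) for Tgfbr1, at 119 young and 62.6 old CPM, and −0.81 (−1.12 to −0.49) for Tgfbr2, at 76.4 young and 43.6 old CPM. For Smad7, at 62.1 young and 36.5 old CPM, it was −0.77 (−1.11 to −0.42). None of the 6 members with 50 or more UMIs in this class reached 2-fold, where 8.63% of genes did. The class was made up differently in the libraries. A cluster led by the complement genes C1qa, C1qb and C1qc with Cxcl9 and Apoe held 29.8% of the class among young and 4.97% among old cells. Tgfbr1 stood at 317 CPM (260–381) and Tgfbr2 at 168 CPM (128–217) in its young cells. In the other main cluster, led by Lyz2 and Ms4a6c and holding 68.9% (young) and 94.8% (old) of the class, the receptor ratios were −0.41 (−0.74 to −0.07) for Tgfbr1 and −0.45 (−0.84 to −0.06) for Tgfbr2. In that cluster Smad7 stood at 55.6 young and 30.4 old CPM (−0.87; −1.27 to −0.46) and Tgfb1 at 449 young and 385 old CPM (−0.22; −0.35 to −0.09). The receptor ratios of the class moved with the processing. With classes taken from clusters they were −0.40 (−0.60 to −0.19) for Tgfbr1 and −0.33 (−0.57 to −0.10) for Tgfbr2. Among cells with Xist alone they were −1.55 (−2.06 to −1.03) and −0.39 (−1.15 to 0.43), the latter an interval that includes 0. With CPM averaged over single cells the Tgfbr1 ratio was −1.32, past 2-fold.

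Tgfbr3, the co-receptor that presents ligand and binds Tgfb2 with particular affinity, was ordered differently among the T-cell classes of the 2 libraries. In the young library it stood at 48.3 CPM in endothelial-like cells, 32.6 CPM in CD4 T-like cells (17 UMIs) and 9.43 CPM in ILC2-like cells (76 UMIs), while CD8 and DN T-like cells held 4 UMIs each, at 4.17 and 4.95 CPM. In the old library the DN class led these with 36.3 CPM (247 UMIs in 201 of 1572 cells), followed by ILC2-like cells at 17.7 CPM, CD4 T-like cells at 14.7 CPM and CD8 T-like cells at 9.62 CPM. NK or ILC1-like cells held no Tgfbr3 UMI in either library, which a level of up to 4.07 CPM (young) or 1.72 CPM (old) would allow. The old-over-young log2 ratio was 2.88 (1.5–4.76) in DN T-like cells, 0.91 (0.26–1.53) in ILC2-like cells and −1.15 (−1.91 to −0.31) in CD4 T-like cells. In CD8 T-like cells it was 1.21, with an interval of −0.21 to 3.12 that includes 0. Among cells with Xist alone the ILC2-like ratio was 0.094 (−1.68 to 1.55). The DN T-like and CD4 T-like ratios rest on 4 and 17 UMIs in the young library. PT-like cells were low throughout but well counted, at 1.13 CPM (123 UMIs, young) and 2.37 CPM (159 UMIs, old), a log2 ratio of 1.07 (0.72–1.42). PT-like cells lay in different clusters in the libraries, since 24.9% and 19.3% of the old ones were in 2 clusters with 5 and 17 young cells in all. In the 1 cluster that both libraries filled most, with 636 young and 523 old PT-like cells, the Tgfbr3 ratio was 1.44 (0.69–2.23).

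Smad7, the inhibitory Smad that TGF-β itself induces, was highest in T cells. Its level was 451 young and 411 old CPM in CD4 T-like cells, 397 young and 446 old CPM in CD8 T-like cells, 365 young and 444 old CPM in DN T-like cells, and 291 young and 303 old CPM in ILC2-like cells. ILC2-like cells were below CD4 T-like cells with log2 ratios of −0.63 (−0.83 to −0.43; young) and −0.44 (−0.58 to −0.30; old). Between the libraries the ILC2-like level did not differ beyond counting error (0.06; −0.08 to 0.20). PT-like cells stood at 78.4 and 63.0 CPM, a log2 ratio of −0.32 (−0.37 to −0.26). This difference was not seen in the cluster shared by both libraries, where the PT-like levels were 91.2 young and 92.1 old CPM (0.01; −0.12 to 0.15), or among cells with Xist alone (−0.043; −0.17 to 0.083). Macrophage or monocyte-like cells were lower than PT-like cells. Neutrophil-like cells, at 50.2 CPM (28.1–82.8; young) and 48.3 CPM (31.6–70.8; old), had intervals that include the PT-like levels.

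Smad3, which carries the signal to the nucleus, was highest in ILC2-like and NK or ILC1-like cells among the classes with at least 50 cells. ILC2-like cells held 66.7 CPM (61.1–72.5; young) and 76.5 CPM (64.1–90.6; old), and NK or ILC1-like cells 55.7 and 77.8 CPM. CD4 T-like cells were at 23.0 and 17.1 CPM and CD8 T-like cells at 28.1 and 18.6 CPM, and B-like cells were low at 9.61 and 4.87 CPM. The few γδ T-like cells held 64.7 and 18.8 CPM. ILC2-like cells exceeded CD4 T-like cells by 1.53 (0.72–2.49) and 2.16 (1.78–2.54) on the log2 scale, whereas their Smad7 level was below that of CD4 T-like cells. PT-like cells held 12.4 and 11.7 CPM and macrophage or monocyte-like cells 13.7 and 13.6 CPM. In neutrophil-like cells 1 UMI was counted in the young library and 16 UMIs in 13 cells in the old.

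Across the 10 classes compared between the libraries, 48 pairs of a member and a class had at least 50 UMIs in the 2 libraries together, and 6 of them differed by 2-fold or more. Over all genes 8.91% of such pairs did, 5.3% with the old library higher and 3.61% with the young. The 3 member pairs higher in the old library were Tgfbr3 in CD8 T-like, DN T-like and PT-like cells. The 3 higher in the young library were Tgfbr1 and Tgfbr3 in CD4 T-like cells and Smad3 in DN T-like cells. By class, 2-fold was reached by 0 of 6 members in ILC2-like cells, beside 6.33% of genes, by 2 of 6 in CD4 T-like cells (12.2%), by 1 of 6 in CD8 T-like cells (7.96%) and by 1 of 6 in PT-like cells (7.49%). It was reached by 0 of 4 in NK or ILC1-like cells (3.5%), 0 of 3 in B-like cells (9.09%), 0 of 1 in neutrophil-like cells (7.58%) and 0 of 4 in pDC-like cells (2.06%). The Tgfbr1 difference in CD4 T-like cells rests on 9 young and 51 old UMIs, 17.3 against 8.24 CPM, and its interval of −2.10 to 0.14 includes 0.

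**Figure D4:**
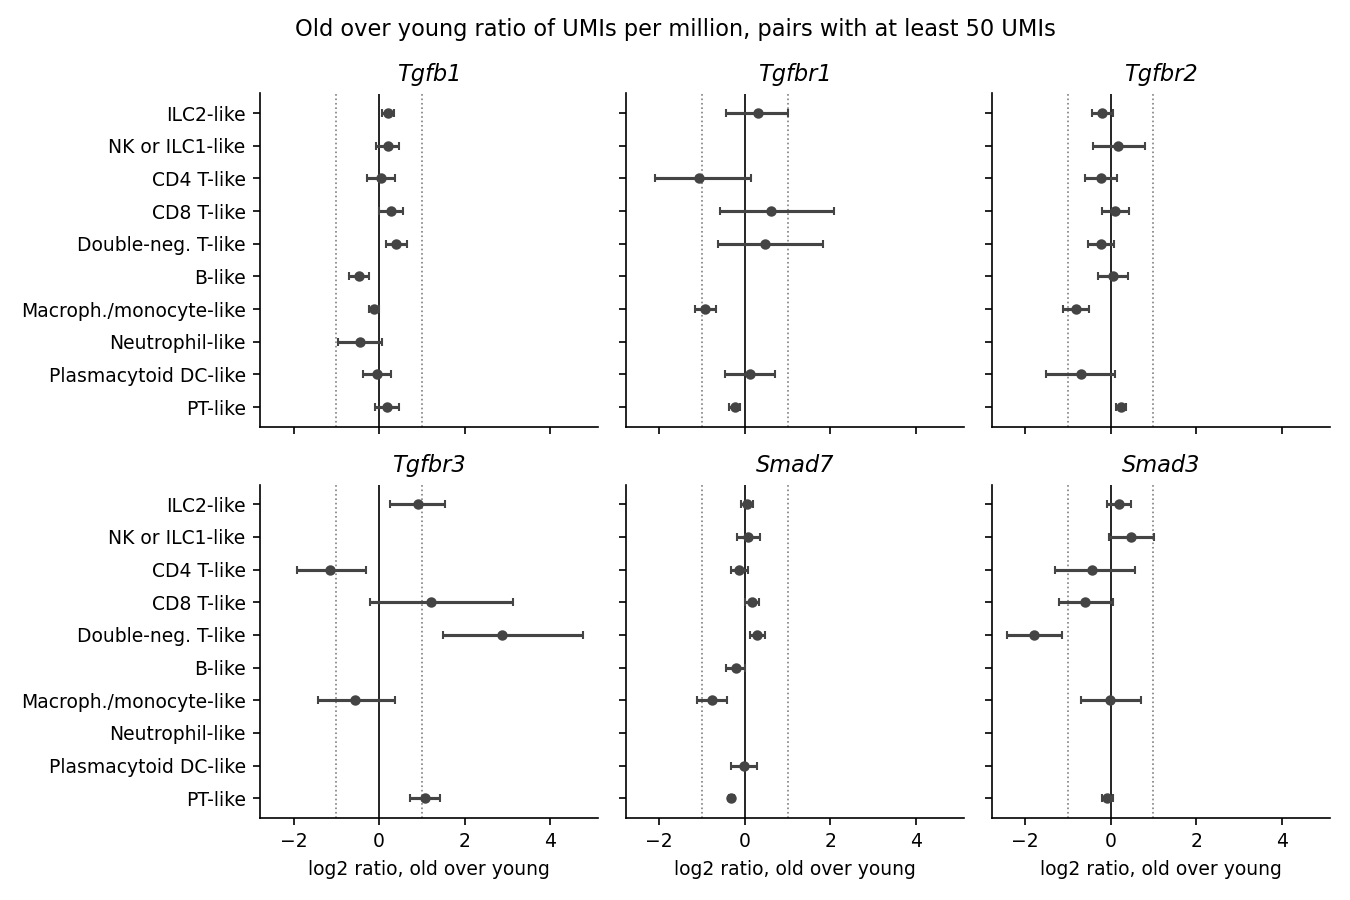
Log2 ratio of the old over the young library for each member with at least 50 UMIs in one of the 10 classes compared, with exact binomial 95% intervals that cover counting error only; the lines mark 2-fold. Tgfbr3 in DN T-like cells (2.88) and Smad3 in the same class (−1.80) lie farthest from 0 in their directions among the pairs drawn.

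The DN T-like class held both extremes, and its cells lay in different clusters in the 2 libraries. Smad3 stood at 38.4 CPM (31 young UMIs) and 11.0 CPM (75 old UMIs), a log2 ratio of −1.80 (−2.42 to −1.15), while Tgfbr3 stood at 4.95 young and 36.3 old CPM. In this class 18.4% of genes differed by 2-fold or more, the highest share of the 10 classes, and 2 of the 6 members did. The ILC2 marker list summed to 610 CPM in young and 85.5 CPM in old DN T-like cells, against 3011 and 3762 CPM in ILC2-like cells, and 39 of 175 young (22.3%) but 28 of 1572 old cells (1.78%) had 2 or more ILC2 markers. Without those cells Tgfbr3 stood at 6.87 and 36.9 CPM, a log2 ratio of 2.43 (1.05–4.31), and Smad3 at 27.5 and 10.8 CPM, a log2 ratio of −1.34 (−2.14 to −0.46). Cells with Xist alone were 21.7% of the young and 52.3% of the old DN T-like cells.

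Most old DN T-like cells, 1153 of 1572 (73.3%), lay in 1 cluster of 1439 cells of which only 4 came from the young library. Its leading genes were Myb, Meg3, Dnah8, Eomes and Slamf7. With so few young cells, cell type and library cannot be told apart in this cluster. The members inside it differed from the 419 old DN T-like cells outside. Tgfb1 was at 268 CPM (254–283) inside and 158 CPM (140–177) outside, beside 183 CPM (154–215) in the 172 young cells outside. Tgfbr3 was at 44.8 CPM (39.1–51.1) inside and 13.6 CPM (8.78–20) outside, beside 5.04 CPM (1.37–12.9) in the young cells. Smad3 was at 4.64 CPM (2.94–6.96) inside and 28.2 CPM (21.1–37.0) outside, beside 39.1 CPM (26.6–55.5). Smad7 was at 415 CPM (398–434) inside and 522 CPM (490–556) outside. Tgfbr2 was nearly level, at 113, 105 and 130 CPM. Compared outside this cluster alone, the old-over-young log2 ratio was −0.21 (−0.50 to 0.09) for Tgfb1, 1.43 (−0.11 to 3.41) for Tgfbr3 and −0.47 (−1.14 to 0.22) for Smad3, and these 3 intervals include 0. For Smad7 it was 0.52 (0.33–0.71), beside 0.28 (0.11–0.46) over the whole class. Without the cells that had 2 or more ILC2 markers, the Smad7 ratio was 0.076 (−0.11 to 0.27), an interval that includes 0.

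**Figure D5:**
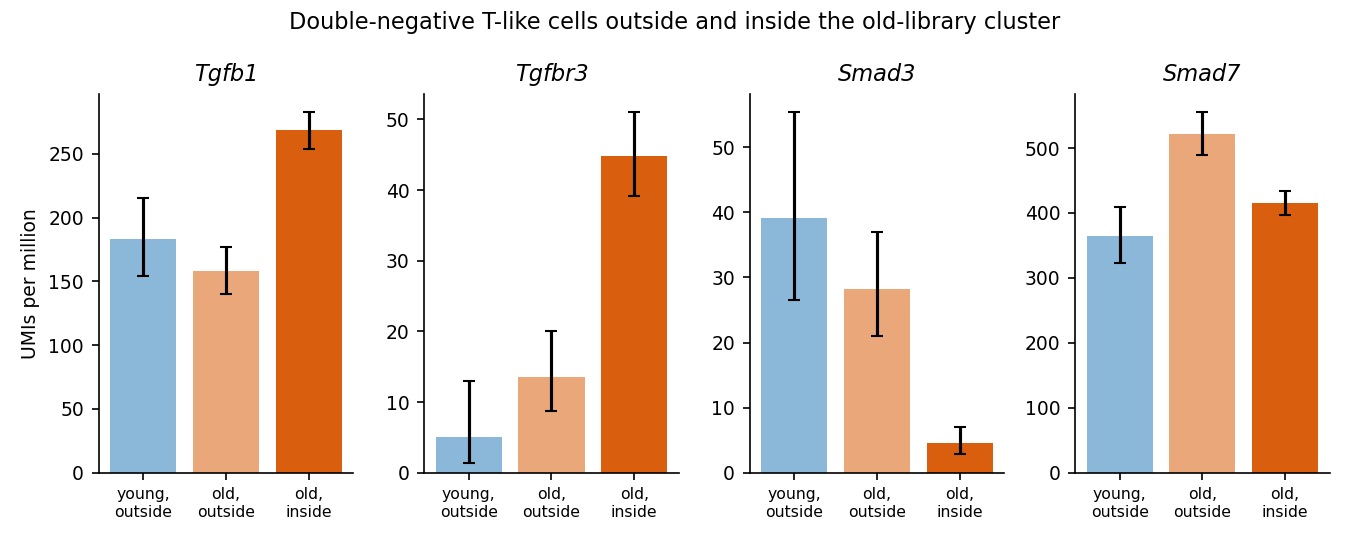
Levels of members in DN T-like cells (CPM, with exact Poisson 95% intervals) for young cells outside the old-library cluster, old cells outside it and old cells inside it. Tgfb1 and Tgfbr3 are highest inside (268 and 44.8 CPM), and Smad3 is lowest there (4.64 CPM).

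The other genes of the pathway were followed as a list of 26, covering activators, latency proteins, Smads, inhibitors and known targets. By class, between 4 and 20 of them had 50 or more UMIs. In ILC2-like cells 15 did, and 2 of these differed by 2-fold or more, both lower in the old library, beside 6.33% of all genes in this class. They encode integrin chains that pair with αv to release TGF-β, Itgb6 with 57 young and 0 old UMIs, a count that allows up to 1.71 CPM, and Itgb8 with 47 and 5, whose ratio has an interval of −2.72 to 0.29. Both genes were far higher in PT-like cells, and the 8 PT markers summed, within ILC2-like cells, to 552 (young) and 219.9 CPM (old). Their part in these counts was not tested. ILC2-like cells also carried Furin, the protease that cuts the ligand precursor, at 236 and 258 CPM, the Smad co-repressor Skil at 186 and 246 CPM, and the decoy receptor Bambi at 96.8 and 91.4 CPM. In NK or ILC1-like cells 0 of 11 reached 2-fold, beside 3.5% of genes.

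In DN T-like cells 14 of the 26 were counted at this depth, and 7 of them differed by 2-fold or more, beside 18.4% of all genes. Tgif1, a repressor of Smad targets, stood at 40.8 young and 120 old CPM, Itgav, the αv integrin chain, at 42.1 and 110 CPM, and Cdkn2b, a TGF-β target that slows the cell cycle, had 0 young UMIs (a limit of 3.71 CPM) and 120 old UMIs (17.7 CPM). Furin was at 109 and 42.7 CPM, Pmepa1, a target that feeds back on the pathway, at 100 and 45.0 CPM, Bambi at 43.3 and 7.06 CPM, and Itgae, the CD103 chain that TGF-β induces in resident T cells, at 18.6 and 8.38 CPM. Without the cells that had 2 or more ILC2 markers, Furin stood at 75.5 young and 40.8 old CPM, a log2 ratio of −0.89 that is below 2-fold. The other 6 remained past 2-fold, but Itgae then had 9 young and 38 old UMIs, fewer than the 50 required. These levels also differed between the old cells inside and outside the old-library cluster. Inside it Pmepa1 was at 14.7 CPM and Itgae at 0.807 CPM, against 126 and 28.8 CPM in the old cells outside. Tgif1 was at 141 CPM inside and 64.6 CPM outside. Beside the young class, the old cells outside were higher and not lower in Pmepa1 (126 against 100 CPM) and Itgae (28.8 against 18.6 CPM). Their Tgif1 level was less than 2-fold above the young 40.8 CPM. Old-over-young ratios of the 7 genes outside the cluster are not given here.

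In CD8 T-like cells 2 of 13 differed by 2-fold or more, beside 7.96% of all genes. Itgae was higher in the old library, at 21.9 young and 78.9 old CPM, a log2 ratio of 1.85 (1.23–2.55), and Bambi lower, at 14.6 young and 6.12 old CPM. Treg-like cells of the old library held Pmepa1 at 363 CPM and Itgae at 211 CPM, the latter in 52 of 112 cells, together with Itgav at 137 CPM and Itgb8 at 44.9 CPM. Among macrophage or monocyte-like cells 1 of 16 genes passed 2-fold, beside 8.63% of all genes. It was Thbs1, thrombospondin, an activator of latent TGF-β, at 449 young and 219 old CPM. Nrros, which holds latent TGF-β on myeloid cells, was at 206 and 188 CPM there, and in pDC-like cells it stood at 48.2 young and 135 old CPM (log2 ratio 1.49; 0.84–2.18). Tgfbi, a secreted target, was counted at 432 young and 438 old CPM in neutrophil-like cells and at 456 and 571 CPM in the macrophage or monocyte-like class.

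PT-like cells had the most listed genes counted, 20 of 26. Of these, 5 differed by 2-fold or more, beside 7.49% of all genes, all lower in the old library: Bambi, an inhibitor, the latency gene Ltbp3, the inhibitory Smad6, the matrix gene Ctgf, a TGF-β target, and Itgae. In the cluster that both libraries filled most, 1 of these 5 stayed past 2-fold, Ctgf at 6.13 young and 1.57 old CPM (−1.96; −2.91 to −1.11). PT-like cells also carried the activating integrin chains, with Itgb8 at 89.5 and 91.4 CPM and Itgb6 at 89.6 and 53.4 CPM. Young endothelial-like cells held Eng, an endothelial TGF-β co-receptor, at 2151 CPM and Ltbp4, another latent TGF-β binding protein, at 335 CPM, beside the Ltbp1, Lrrc32 and Tgfbr2 described above.

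The genes whose levels followed each member most closely were ranked over 25 profiles, each a class in a library, among 10997 genes. The 3 nearest to Tgfb1 were Epb41l2 and Inpp5d (each Pearson r = 0.96), the latter a phosphatase of blood cells, and Gsdmd, the pore-forming protein of pyroptosis. Ltbp1 was nearest to the endothelial genes Sparcl1 (0.99) and Sox18 and to Cald1, and Lrrc32 to Sox18 (0.75), the endothelial phosphatase Ptprb and Sparcl1. Tgfbr1 was nearest to Atp6ap2 (0.90), Mapkapk2 and the lysosomal gene Psap, and Tgfbr2 to Rbm5 (0.95), Ice1 and Tet3. Tgfbr3 was nearest to Spry1 (0.86), Tbc1d4 and Xxylt1, Smad7 to Cdkn2aip (0.95), Arl2bp and Prrc2b, and Smad3 to Nabp1 (0.86), Maff and Rnaseh2c. These profiles share libraries and depth and carry no test. Tgfb2 and Tgfb3 were too sparse to rank.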

How the data were processed

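Per the labels, each library was made from pooled, ILC-enriched kidney cells of MRL-lpr mice with droplet 3′ chemistry. The authors deposited raw UMI counts per gene and barcode for the 2 libraries, made with Cell Ranger 3.1.0 per the file headers on mm10; the annotation release and any handling of intronic reads are not given in the sources used here. Kept cells held 145647185 UMIs in the young and 119218130 in the old library.

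Barcodes below 200 genes or above 20% mitochondrial UMIs were left out. The tools were Scanpy 1.11.5, pandas 2.3.3, SciPy 1.17.1 and NumPy 2.4.6 under Python 3.11.15, with Matplotlib 3.10.9 for figures. Doublets were called (328 young, 246 old) and were kept in the main values. A marker counted as present at 10% or more of the gene's 99th percentile of CPM, and a class needed 3 markers. This gate, and the joining of macrophages with monocytes, were set after the values were seen. The ILC2-like class had 18.0% (young) and 18.3% (old) of its cells at exactly 3 markers, and the DN T-like class 27.4% and 11.2%; the median number of other classes' markers per cell was 0 to 2. Clusters (Leiden, resolution 1.5, 2000 variable genes, 20 components) were built without the members and the pathway list. UMIs were summed per class and library. Counts have exact Poisson, shares exact Clopper-Pearson and ratios exact binomial 95% intervals; a count of 0 is given as the limit of 3 counts. Gene positions come from GENCODE M21 (GRCm38).

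With 1 library per age there are no replicates, and no p-value or standard deviation was computed. Genes were compared at 50 or more UMIs. Every member was described, with a list of 26 pathway genes and, for each member with at least 200 UMIs, the 3 genes of highest Pearson correlation of log2(CPM + 1) among genes with at least 1000 UMIs; which of the 26 are given with values was chosen after their values were seen. The members and lists were chosen with earlier results of these data known. Alternatives were a 1.5-fold limit, minimums of 20 or 100 UMIs, 1 more marker or classes from clusters, at least 500 genes, at most 10% mitochondrial UMIs, doublets left out, CPM averaged over single cells, totals without Malat1 and hemoglobin, mitochondrial and ribosomal genes, thinning to 500 or 2000 UMIs or none, and cells with Y-linked or Xist UMIs alone. Leaving out T-like cells with ILC2 markers or in 1 cluster, and PT-like cells of 1 shared cluster, were added after the data were seen.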

Additional observations from a re-analysis of the deposited data

Results flagged for a closer look

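The old-over-young difference of Tgfbr3 had opposite directions in 2 T-cell classes, with a log2 ratio of 2.88 (1.5–4.76) in DN T-like cells and −1.15 (−1.91 to −0.31) in CD4 T-like cells. With 1 library per age, the difference between these ratios was not tested. The young values rest on 4 UMIs in DN T-like and 17 UMIs in CD4 T-like cells. The fullest cluster of each class differed between the libraries: 44.6% of young CD4 T-like cells lay in a cluster other than the one holding 57.6% of the old ones, and 73.3% of old DN T-like cells lay in a cluster with 4 young cells in all. Outside that cluster the DN T-like ratio was 1.43 (−0.11 to 3.41). The part of the cluster makeup in the difference was not tested.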

How the results depend on the processing

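Of the log2 ratios recomputed under the alternatives, 506 stayed within the counting interval of the value reported, 39 moved beyond it, and 4 more changed sign although the reported interval left out 0. The alternatives that left out only T-like cells could not alter values of the other classes, which are counted as staying. A change of sign from a reported interval that included 0 was seen in 42 others, and 26 of the intervals that left out 0 no longer did. The first 4 are as follows. Restricted to cells with Xist alone, the old-over-young ratio of Tgfb1 was −0.10 (−0.38 to 0.17) in ILC2-like cells and −0.41 (−1.06 to 0.32) in CD8 T-like cells. That of Tgfbr1 in PT-like cells was 0.040 (−0.25 to 0.33), and all of these intervals include 0. Outside 1 cluster of the old library, an alternative chosen after seeing the data, the ratio of Tgfb1 in DN T-like cells was −0.21. Among cells with Y-linked UMIs alone Tgfb1 in ILC2-like cells was 0.45. The ratio of ILC2-like over CD4 T-like cells for Tgfb1 was 2.03 in the young library among cells with Xist alone and 1.02 in the old library with classes taken from clusters. Smad7 in CD4 T-like cells with Xist alone was 0.12, against −0.13 as reported. With classes from clusters, Tgfb1 in macrophage or monocyte-like cells was 0.12 (0.03 to 0.22), against −0.12. Among cells with Xist alone, Tgfbr3 in ILC2-like cells was 0.094 (−1.68 to 1.55), Smad7 in PT-like cells −0.043 and Tgfbr1 in pDC-like cells −1.19. Tgfb1 in PT-like cells was 1.13 (0.34 to 1.94) with Xist alone and −0.15 (−0.57 to 0.25) with Y-linked UMIs alone. In DN T-like cells Smad3 was −2.67 with Xist alone and −0.47 outside that cluster, and Tgfbr3 was 1.43 outside it. Tgfbr3 in CD4 T-like cells with Xist alone was −2.25. The causes were not tested. The count of member and class pairs past the limit was 13 at 1.5-fold and 3 of 46 outside the cluster of the old library (1 higher in the old library, 2 in the young), against 6 as reported and 4 to 6 under the other alternatives run for it. The count was not run for cells with Y-linked UMIs or Xist alone or for CPM averaged over cells. Levels in CPM moved beyond their interval in 251 of the recomputed values and stayed in 1949, again counting values that leaving out T-like cells could not alter. Depth limits Tgfb2, Tgfb3, Ltbp1 and Lrrc32 in most classes and all values of the 18 old endothelial-like cells. No paired analysis was possible because each age has 1 library.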
